A study of Mus musculus with 18 samples.

Results

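The Eomes promoter was compared with its 3 nearby enhancers, VPE, PSE_a and PSE_b, in mouse embryonic stem cells (ESCs), in which the study describes the Eomes locus as silent. The comparison covers 6 of the 18 samples of the series. They are 3 ESC chromosome conformation capture libraries, A, B and C, each enriched once with probes for promoters and once with probes for enhancers. The promoter capture gives 1 column per library for Eomes, and the enhancer capture gives 1 column each for VPE, PSE_a and PSE_b, so that 12 columns were compared, joined by library letter. All ESCs were of strain 129/Sv//EV, at day 0 of differentiation, and were grown with LIF on gelatin. The definitive endoderm (DE) libraries of the series, taken from embryoid bodies treated with ActivinA and EGF, were used as a second cell state and to find stretches without reads. The study calls its replicates biological, and the labels do not say whether the ESC libraries came from separate cultures, so p-values refer to these libraries only. The limma test used below takes the spread of a feature largely from that of features with a like signal. The promoter and the enhancers were captured in separate pulldowns, and capture and kind of viewpoint cannot be told apart.

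Eomes encodes a T-box transcription factor that directs the primitive streak, mesoderm and endoderm at gastrulation. The PSE is an upstream primitive streak enhancer made of PSE_a and PSE_b, and the VPE is a downstream enhancer with activity in the visceral endoderm and primitive streak. A chromatin domain is a stretch of chromosome in which fragments meet each other more often than they meet fragments outside, and its edges are often held by the protein CTCF. Far contacts between silent developmental genes, such as those marked by Polycomb proteins, have been described in ESCs, whereas neighbouring active genes often meet at their promoters. NG Capture-C counts, for a chosen fragment called the viewpoint, how often every other DpnII fragment was ligated to it. Such a ligation is called an interaction here.

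All positions are in mouse build mm9 on chromosome 9, and distances are from the Eomes transcription start site (TSS) at position 118387330, negative for upstream. The centres of the zones that hold no reads around each viewpoint lay at -9.9 kb for PSE_a, -6.2 kb for PSE_b, -0.5 kb for the promoter and 9.0 kb for VPE. Since these zones are so close together, all interactions within 30 kb of the TSS were left out. Values below are interactions per 100000 chromosome 9 interactions farther than 30 kb from the TSS. Total reads per ESC column ran from 6113 to 22002, and 2714 to 10574 of them lay on chromosome 9 beyond 30 kb. Library C held the fewest of these reads from each of the 4 viewpoints.

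Each viewpoint also lacked every read over some long stretches far from Eomes. Over 20 stretches of 37.3 to 78.5 kb, all 6 ESC and DE columns of 1 viewpoint held 0 reads where the other viewpoints had reads. The promoter had 6 such stretches, VPE 7, PSE_a 4 and PSE_b 3. The sources used here give no reason for them. None lay inside the domain described below. An enhancer without a value in such a stretch would look as if it lacked a contact there, so the stretches of all 4 viewpoints were left out of all columns and totals. The VPE stretch at chr9:91225925-91283355 holds the starts of Zic1 and Zic4, and the PSE_a stretch at chr9:99766573-99810711 holds the start of Sox14. These places were tested only among the viewpoints that have values there.

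The fragments below show the places where differences were found, though only the last of them passed a test as a single fragment. The first lies in the stretch that holds the Zic1 and Zic4 starts and has the most promoter reads there in ESCs. The second is at the start of Ctdspl, also with the most promoter reads of its window. The third is the fragment with the most PSE reads in the window of an enhancer-like element at -38 kb, and the fourth is the single fragment that differed between the promoter and the enhancers as a group. Each is printed on the plus strand of mm9, at most 300 bases from its first base, with CG pairs in capitals. CG pairs are dense in the CpG islands found at many gene starts, and the counts in these stretches were 10, 39, 1 and 1. Only the Ctdspl fragment spans a gene start, and the Zic fragment reaches neither the Zic1 nor the Zic4 start.
Zic1 and Zic4, chr9:91277186-91277485: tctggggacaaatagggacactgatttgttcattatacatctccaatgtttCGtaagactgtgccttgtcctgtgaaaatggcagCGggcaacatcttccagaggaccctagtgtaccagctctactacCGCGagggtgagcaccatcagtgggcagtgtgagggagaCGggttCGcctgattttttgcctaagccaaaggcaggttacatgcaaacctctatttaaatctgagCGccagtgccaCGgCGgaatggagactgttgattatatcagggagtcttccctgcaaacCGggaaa
Ctdspl, chr9:118835367-118835666: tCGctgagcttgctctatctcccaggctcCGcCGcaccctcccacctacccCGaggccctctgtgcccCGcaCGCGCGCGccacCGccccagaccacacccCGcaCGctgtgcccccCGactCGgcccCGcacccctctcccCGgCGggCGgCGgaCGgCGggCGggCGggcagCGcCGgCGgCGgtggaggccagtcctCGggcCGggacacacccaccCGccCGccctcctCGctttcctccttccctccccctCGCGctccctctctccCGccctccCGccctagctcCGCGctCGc
Element at -38 kb, chr9:118348851-118349150: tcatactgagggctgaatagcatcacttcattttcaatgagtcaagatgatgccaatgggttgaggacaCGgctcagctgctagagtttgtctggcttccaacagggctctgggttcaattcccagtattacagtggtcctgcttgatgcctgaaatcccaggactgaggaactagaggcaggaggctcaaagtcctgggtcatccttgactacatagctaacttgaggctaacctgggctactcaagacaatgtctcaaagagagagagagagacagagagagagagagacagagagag
Fragment at -34.2 kb, chr9:118353062-118353253: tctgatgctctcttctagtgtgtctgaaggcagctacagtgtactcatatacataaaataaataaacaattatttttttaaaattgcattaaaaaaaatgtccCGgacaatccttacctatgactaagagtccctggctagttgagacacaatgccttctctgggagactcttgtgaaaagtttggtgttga
The Zic fragment held 6 promoter reads and 0 PSE reads over the 3 ESC libraries, and VPE has no value there. The Ctdspl fragment held 15 promoter reads, 15 VPE reads and 5 PSE reads. The element fragment held 22 promoter reads, 21 VPE reads and 62 PSE reads, and the fragment at -34.2 kb held 4, 16 and 36. PSE reads are the sum over PSE_a and PSE_b, which have 6 columns against 3 for the promoter.

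The 4 viewpoints gave mostly like left edges of 1 domain, and their right edges were less alike. The edges used below were placed at the largest step in reads between 50 kb inside and 50 kb outside, over all 12 columns. Such a search always returns an edge, and the fall of reads with distance was not corrected for. The left edge lay at -445 kb, near the start of Azi2, which encodes an adaptor of the kinase TBK1, and the right edge at 130 kb, near the start of Itga9, an integrin subunit. Inside the left edge, reads were 5.77 times as dense as outside, and at the right edge 2.16 times as dense. From the promoter alone, all 3 libraries put the edges at -445 kb and 130 kb. From VPE the left edge fell between -460 and -445 kb and the right edge between 130 and 145 kb. From PSE_a the ranges were -475 to -445 kb and 130 to 215 kb, and from PSE_b -445 to -325 kb and 170 to 175 kb. Both the -475 and the -325 kb edges came from library C.

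The left step was steeper from the promoter and VPE than from the PSEs. It was 6.32, 7.41 and 6.21 from the promoter and 8.85, 6.40 and 7.82 from VPE, against 3.47, 3.82 and 3.28 from PSE_a and 4.86, 4.80 and 3.46 from PSE_b. The promoter and VPE values do not overlap with those of the PSEs. The right step was 2.33 ± 0.27 (SD, n = 3) from the promoter, 2.46 ± 0.36 from VPE, 1.86 ± 0.44 from PSE_a and 1.82 ± 0.33 from PSE_b, and these ranges overlap. The edges were found in the same columns and no test was made of them. A search on both strands for exact matches to 1 consensus of the CTCF core motif found 0 copies within 10 kb of the left edge. It found 1 at the right edge, on the plus strand at chr9:118515740-118515753. Of 6035 windows of 20 kb on the chromosome, 5.22% hold a copy, with 339 copies in all. Sites that depart from the consensus are missed, so the search cannot tell whether CTCF binds at an edge. The study reports many CTCF-binding sites in the compartment it describes around Eomes. From motif analysis it proposes that the outermost ones face inwards.

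**Figure D1:**
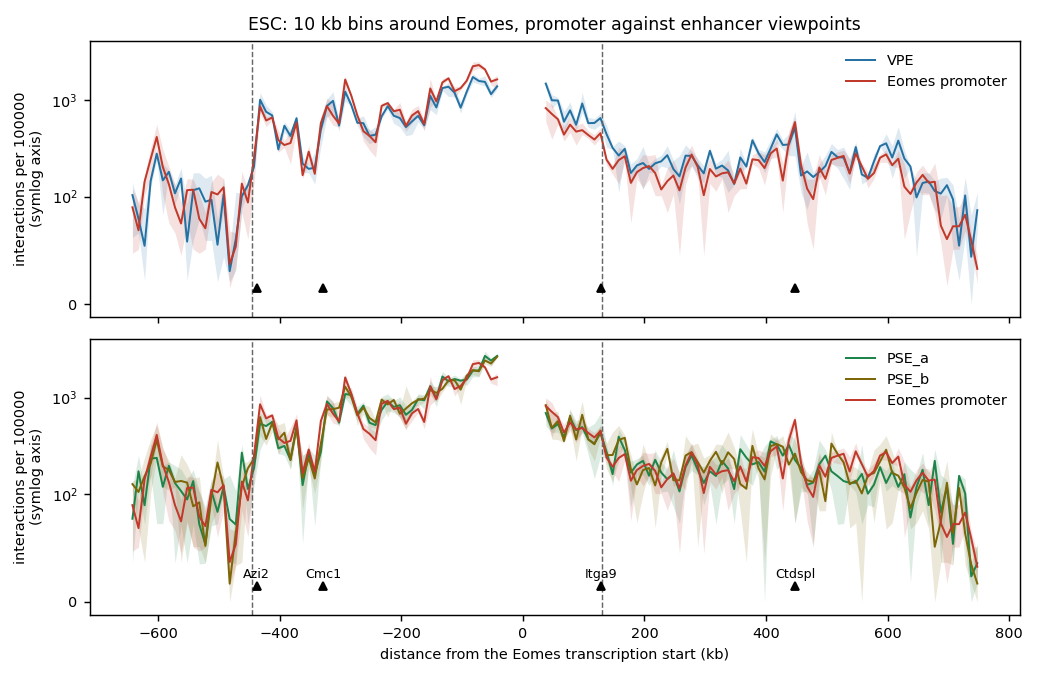
Interactions per 100000 (symlog axis, linear below 100) in 10 kb bins against distance from the Eomes TSS in kb, for the promoter with VPE (top) and with the PSEs (bottom). Lines are means of 3 ESC libraries, shading runs from the lowest to the highest library, dashed lines mark the edges at -445 kb and 130 kb and triangles mark gene starts. All 4 profiles drop at the left edge, and at Ctdspl the promoter mean lies above those of the PSEs, while the VPE libraries spread widely.

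The domain took a like share of interactions from each viewpoint. It held 46.2%, 44.2% and 42.2% of the promoter interactions beyond 30 kb on chromosome 9 in libraries A, B and C. It held 41.9 ± 0.3% for VPE, 46.5 ± 1.7% for PSE_a and 46.8 ± 0.8% for PSE_b (SD, n = 3). In all 3 libraries the promoter share was above that of VPE and below those of both PSEs, by 2.28 ± 1.87, -2.34 ± 0.45 and -2.63 ± 1.22 percentage points. The exact two-sided sign-flip test over 3 library pairs gave p = 0.25 for each, the smallest it can give.

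The promoter resembled the PSEs in the side it faced. Of the domain interactions, 87.4 ± 1.4% lay upstream of the TSS for the promoter, 80.0 ± 0.3% for VPE, 89.5 ± 1.6% for PSE_a and 88.6 ± 0.9% for PSE_b. The promoter share exceeded that of VPE by 6.61, 6.82 and 8.81 points in libraries A, B and C, and the 2 sets of libraries do not overlap (exact sign-flip p = 0.25). VPE is the only viewpoint downstream of the gene. The part of position in this difference was not tested. Chromosome 9 as a whole held 62.6 ± 4.5% of all promoter interactions, 65.9 ± 3.6% of those of VPE, 54.3 ± 1.5% of those of PSE_a and 65.1 ± 3.9% of those of PSE_b. PSE_a was lower than the promoter in all 3 libraries, by 8.25 ± 3.67 points (exact sign-flip p = 0.25).

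**Figure D2:**
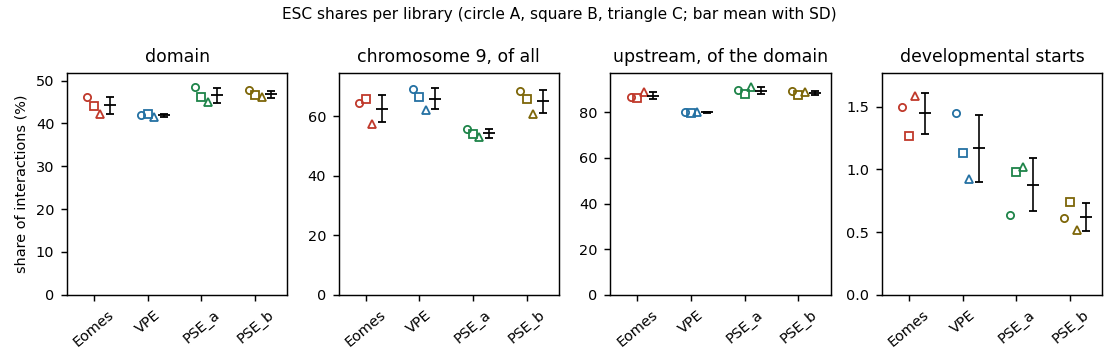
Share of interactions in percent for each ESC library (symbols), with mean and SD (bars, n = 3), by viewpoint. From left to right are the domain, chromosome 9 among all interactions, the upstream side of the domain, and 50 kb windows at developmental gene starts, where the promoter libraries lie between 1.27% and 1.58% and those of PSE_b between 0.516% and 0.739%.

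The promoter also met its enhancers. Values in this paragraph are per kb and per 100000 interactions on all of chromosome 9, those within 30 kb of the TSS included. They are thus on another scale than the other values. The captured zone of VPE held 433 ± 4 promoter interactions, that of PSE_a 625 ± 52 and that of PSE_b 641 ± 109 (SD, n = 3). In the other direction, the promoter zone held 718 ± 90 per kb from VPE, 494 ± 49 from PSE_a and 702 ± 51 from PSE_b. These zones lie within 30 kb, where density falls steeply with distance, and no test was made.

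Differences inside the domain were found first by single fragments, with limma on log2 values after adding 10, with the library as a block and Benjamini-Hochberg adjustment. Of 1387 fragments with at least 10 reads, 1 (0.0721%) differed between the promoter and the mean of the enhancers. It was the printed fragment at -34.2 kb, f118353062 below. The promoter value there was 0, 37.8 and 0 in libraries A, B and C, against 51.8, 79.0 and 66.1 from VPE, 194, 126 and 182 from PSE_a and 67.8, 103 and 111 from PSE_b. All promoter libraries lay below all enhancer libraries. The call for f118353062 is lost with edgeR (adjusted p = 0.183), with DESeq2 and without library A or C. The same fragment was the only one (0.0721%) past the threshold against PSE_a. Against VPE and PSE_b limma called 0 fragments, with 57 and 83 at an unadjusted p under 0.05, and edgeR also called 0 in each.

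In 10 kb bins within 2 Mb the counts were larger. Of 362 bins tested, 3 (0.829%) differed between the promoter and the mean of the enhancers by limma, 1 higher and 2 lower. Against VPE 4 bins (1.1%) differed, 2 in each direction. Against PSE_a 10 (2.76%) differed, 5 in each direction, and against PSE_b 6 (1.66%), 2 higher and 4 lower. Between the enhancers, PSE_a and PSE_b differed in 3 bins (0.829%), and VPE differed from the mean of the PSEs in 19 (5.25%), 12 higher and 7 lower. The counts for the promoter fall to 0 when library A is left out and to 0 without the intensity trend of the spread in limma. Each call of the promoter against an enhancer within 2 Mb named below is also lost in those fits.

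The promoter was lower than both PSEs just upstream, in the bins next to the excluded 30 kb. These bins hold 2 elements, at -45 kb and -38 kb, that the study describes as gaining open chromatin and Smad2/3 binding in DE. In the 5 kb window at -38 kb the promoter had 981, 898 and 732 interactions per 100000, and VPE had 735, 780 and 661. PSE_a had 1607, 1264 and 1494 there, and PSE_b 1594, 1375 and 1400. All promoter and VPE libraries lay below all PSE libraries. The promoter fell below PSE_a by a log2 difference of -0.74 (SE 0.17, limma adjusted p = 0.00306) and below PSE_b by -0.74 (SE 0.17, adjusted p = 0.00318), and its difference from VPE was 0.25 (adjusted p = 0.831). VPE was itself below the mean of the PSEs by -0.99 (limma adjusted p = 3.55e-07). Without library C both promoter calls at -38 kb are lost (element -38 kb, adjusted p = 0.0917 and 0.0690).

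At -45 kb the promoter had 800, 757 and 409 interactions per 100000, close to the 590, 504 and 771 of VPE. PSE_a had 1042, 1210 and 874 and PSE_b 1374, 1066 and 1032, and again no PSE library reached down to the promoter or VPE. The limma differences were -0.71 from PSE_a (adjusted p = 0.0301) and -0.86 from PSE_b (adjusted p = 0.00516). For the element -45 kb the call against PSE_a is lost without any 1 library and that against PSE_b without C (adjusted p = 0.135). The 10 kb bins centred at -52.3, -42.3 and -32.3 kb were lower from the promoter than from both PSEs, with all libraries apart. In the bin at -42.3 kb the promoter held 1750, 1797 and 1328 per 100000 against 2659 to 2738 from PSE_a and 2579 to 2750 from PSE_b. The bin at -162.3 kb was lower against both PSEs, and the bin at -262.3 kb against PSE_a. The PSEs lie nearer to these elements than the promoter does, at 28.1 and 31.8 kb from the -38 kb element against 37.5 kb for the promoter and 47.0 kb for VPE. The part of this distance in the result was not tested.

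The element at -73 kb, which the study describes as open in ESCs but not in DE, went the other way in value. From the promoter it had 1524, 1182 and 1379 interactions per 100000, from VPE 1004, 1096 and 881, from PSE_a 1113, 1047 and 729, and from PSE_b 1204, 1203 and 774. Library B of the promoter lay inside the PSE_b range. The window did not pass against the mean of the enhancers (0.45, SE 0.14, limma adjusted p = 0.105). The 10 kb bin around it, centred at -72.3 kb, was higher from the promoter (2474, 2118 and 2264) than from VPE (1667, 1570 and 1454), as was the bin at -102.3 kb (1260 to 1388 against 727 to 953). The 2 bins higher from VPE than from the promoter lay downstream, at 37.7 and 97.7 kb, on the side of VPE. At -93 kb the promoter had 581 ± 84 per 100000, and no contrast with an enhancer passed the test.

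Among the gene starts within 1 Mb, Ctdspl and Cmc1 were higher from the promoter than from both PSEs. Ctdspl, which encodes a phosphatase of the RNA polymerase II tail, lies at 448.2 kb and thus outside the domain. Its 10 kb window held 603, 558 and 511 interactions per 100000 from the promoter and 673, 405 and 264 from VPE. It held 194, 307 and 72.9 from PSE_a and 254, 344 and 73.7 from PSE_b. All promoter libraries lay above all PSE libraries, and VPE spread across both. The promoter exceeded PSE_a by 1.69 (SE 0.34, limma adjusted p = 0.00041), PSE_b by 1.51 (SE 0.34, adjusted p = 0.00244) and the mean of the enhancers by 1.20 (SE 0.28, adjusted p = 0.0146). Its difference from VPE was 0.41 (adjusted p = 0.871). VPE exceeded the mean of the PSEs by 1.20 (limma adjusted p = 0.00291). Against the mean of the enhancers this call is also lost without library C (0.77, adjusted p = 0.228), as is the call against PSE_b (0.95, adjusted p = 0.109). The bin at 427.7 kb, b118810001, which lies close by, went the other way. It held 136, 218 and 85.1 from the promoter, 331, 385 and 308 from VPE, 247, 217 and 291 from PSE_a and 271, 258 and 405 from PSE_b. The promoter was lower than the mean of the enhancers there by -1.06 (SE 0.29, limma adjusted p = 0.0391), with library B of the promoter just above library B of PSE_a. That call is lost with edgeR (adjusted p = 0.0770), with DESeq2 and without library C (adjusted p = 0.584).

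Cmc1, a mitochondrial protein for assembly of cytochrome c oxidase, starts at -328.1 kb inside the domain. Its window had 860, 974 and 902 interactions per 100000 from the promoter and 870, 928 and 595 from VPE, against 671, 560 and 401 from PSE_a and 424, 619 and 295 from PSE_b. All promoter libraries lay above all PSE libraries. The limma difference was 0.76 from PSE_a (SE 0.23, adjusted p = 0.0301), 1.08 from PSE_b (SE 0.23, adjusted p = 0.00102), 0.22 from VPE (adjusted p = 0.871) and 0.69 from their mean (adjusted p = 0.0352). Leaving out library B or C also ends the calls against PSE_a and the mean (limma adjusted p of 0.202 and 0.260, and of 0.0600 and 0.452), and leaving out C ends that against PSE_b (0.0622).

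Azi2, at -437.7 kb and next to the left edge, had 619, 974 and 630 from the promoter and 921, 780 and 749 from VPE. It had 495, 199 and 474 from PSE_a and 644, 653 and 369 from PSE_b. The promoter was higher than PSE_a by 0.99 (SE 0.26, limma adjusted p = 0.0108), which falls to 0.36 without library B (adjusted p = 0.792). Its differences from PSE_b (0.42, adjusted p = 0.610) and VPE (-0.17, adjusted p = 0.946) did not pass. Itga9, at 128.5 kb, had 431 ± 27 from the promoter and 644 ± 78 from VPE. VPE exceeded the mean of the PSEs there by 0.72 (limma adjusted p = 0.0429), and the promoter differed from VPE by -0.56, PSE_a by 0.17 and PSE_b by 0.14 (adjusted p = 0.554, 0.928 and 0.874). Of all 19 gene starts tested within 1 Mb, 2 were higher from the promoter than from the mean of the enhancers, 3 than from PSE_a, 2 than from PSE_b and 0 than from VPE, and 0 were lower. Over all 362 bins the shares called, in either direction, were 0.829%, 2.76%, 1.66% and 1.1%. Rbms3 and Zcwpw2, upstream of the domain, had -0.93 and -0.12 against the mean and did not pass (limma adjusted p = 0.892 and 0.975). Over these starts the median difference from the mean was 0.25, against 0.05 over all 362 bins.

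Gene starts that passed a contrast with an enhancer, and those that passed none, all held more CG pairs than the chromosome median. The content was 32.7 CG pairs per kb at Ctdspl, 19.4 at Cmc1 and 18.5 at Azi2, which passed against PSE_a only. The median over 10 kb windows of the chromosome was 8.10. Starts that passed none ran from 8.9 at Slc22a14 to 32.2 at Acvr2b, an activin receptor gene. Rich ones among them were Acaa1a (26.6) and Myd88 (26.5), whose windows overlap, Itga9 (23.9), Oxsr1 (23.1), Plcd1 (22.4) and Exog (21.4). Poorer ones were Rbms3 (10.3), Zcwpw2 (11.5), Vill (14.2), Slc22a13 (14.5) and Xylb (17.4). The elements at -38 and -45 kb have 8.80 and 6.80. The bin at Myrip, which encodes a partner of myosin and Rab proteins, lies 1828 kb downstream and was higher from the promoter than from PSE_b. It held 121, 56.7 and 136 per 100000 against 0, 17.2 and 0, and the call is lost with DESeq2 and without library A or C.

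**Figure D3:**
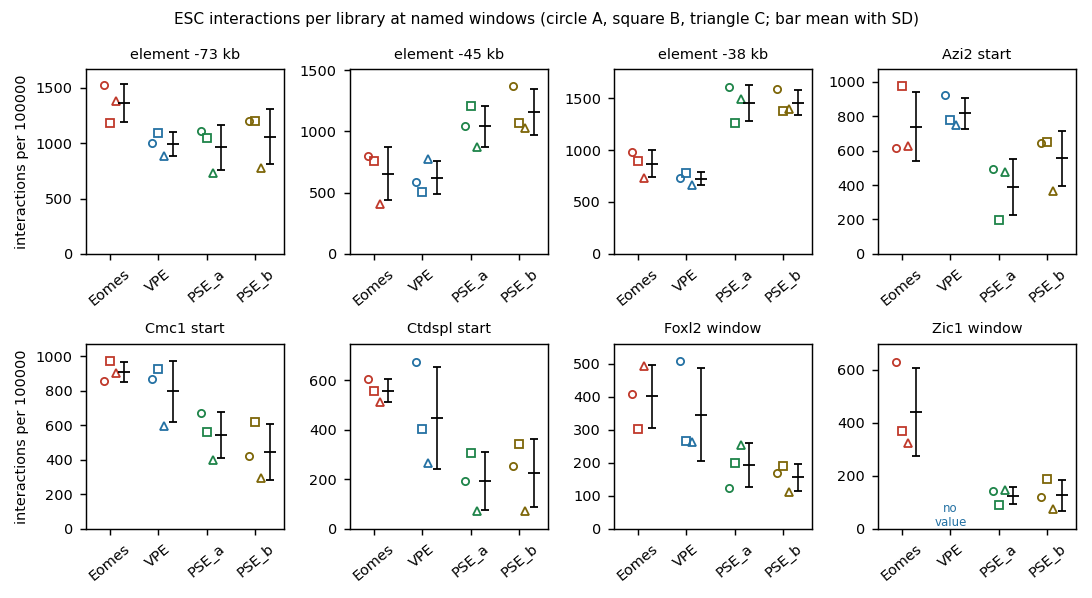
Interactions per 100000 in each ESC library (symbols) with mean and SD (bars, n = 3) by viewpoint, at 3 upstream elements, 3 neighbouring gene starts and 2 far developmental genes. The promoter lies with VPE and below the PSEs at -45 and -38 kb, above the PSEs at Cmc1 and Ctdspl, where VPE overlaps with both, and above both PSEs at Zic1, where VPE has no value.

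Beyond 2 Mb, no 250 kb bin differed between the promoter and the mean of all 3 enhancers. Of 371 bins tested, limma called 0 (0%), with 18 at an unadjusted p under 0.05, and edgeR and DESeq2 called 0. Against VPE and PSE_a limma called 0 as well, with 7 and 26 at an unadjusted p under 0.05. Against PSE_b it called 1 (0.27%), centred at -17510 kb. That bin holds Pccb, a subunit of propionyl-CoA carboxylase, and Msl2, of a histone acetylation complex, with 196, 132 and 136 per 100000 from the promoter and 67.8, 68.7 and 0 from PSE_b. PSE_a and VPE had 88.3 to 219 and 119 to 198 there, and the call is lost with edgeR, with DESeq2 and without any 1 library. The bins with the largest values were at -74512 kb (1.85), with Thy1, and at -37762 kb (-1.85), both at a limma adjusted p of 0.567.

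The windows of Zic1 and Zic4 were higher from the promoter than from both PSEs. These genes encode zinc finger transcription factors of neural and mesodermal development, lie next to each other at -27.1 Mb, and fall in the VPE stretch without reads. In a limma fit without VPE, 1 of 333 bins beyond 2 Mb (0.3%) differed between the promoter and the mean of PSE_a and PSE_b, and it was theirs. The 50 kb window around the Zic1 start held 628, 367 and 322 interactions per 100000 from the promoter. It held 141, 90.1 and 145 from PSE_a and 118, 188 and 73.4 from PSE_b. All promoter libraries lay above all PSE libraries. These values rest on 100 promoter reads against 37 reads of both PSEs together. The study places Polycomb components at the Eomes promoter in ESCs. It reports no evidence that this promoter meets gene promoters beyond its compartment at long range. The test here compares viewpoints and does not call interactions.

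The promoter exceeded the mean of the PSEs at Zic1 by 1.72 (SE 0.34, limma adjusted p = 5.66e-05), PSE_a by 1.70 (adjusted p = 0.00374) and PSE_b by 1.75 (adjusted p = 0.00125). Against PSE_a alone 1 bin (0.3%) passed, and against PSE_b 2 (0.601%), that of Zic1 among them. For Zic4, whose window overlaps that of Zic1, the difference from the mean was 1.64 (adjusted p = 0.000121). Without library A the value at Zic1 was 1.48 and the call was lost (limma adjusted p = 0.220), and so was it without the intensity trend (adjusted p = 0.637). The 101 promoter reads in the stretch fell on 60 of its 96 fragments, with at most 6 on 1 fragment. In the 50 kb to the right of the stretch, where VPE has values, the promoter had 144 ± 42 per 100000, VPE 114 ± 4, PSE_a 65.0 ± 83.3 and PSE_b 58.6 ± 21.2 (SD, n = 3). In the 50 kb to its left all 4 viewpoints had between 13.3 and 38.4. Whether VPE meets the Zic genes cannot be told from these columns.

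Foxl2, a forkhead factor of the ovary and eyelid at -19530 kb, has values from all 4 viewpoints. Its window had 407, 303 and 494 interactions per 100000 from the promoter and 507, 267 and 264 from VPE. It had 124, 199 and 255 from PSE_a and 170, 189 and 111 from PSE_b, below every promoter and VPE library. The promoter exceeded PSE_b by 1.31 (SE 0.34, limma adjusted p = 0.0252). Its differences from PSE_a (1.05, adjusted p = 0.278), from VPE (0.25, adjusted p = 0.980) and from the mean (0.87, adjusted p = 0.567) did not pass. In the fit without VPE, though VPE has values here, it exceeded the mean of the PSEs by 1.18 (limma adjusted p = 0.0118). Against the mean of the other enhancers it did not pass in the fits without PSE_a (0.78, limma adjusted p = 0.509) and without PSE_b (0.65, adjusted p = 0.616). The call against PSE_b is lost without any 1 library, with edgeR (adjusted p = 0.0818) and with DESeq2 (adjusted p = 0.989).

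Sox14, a SOX transcription factor gene at -18.6 Mb, could be compared among the promoter, VPE and PSE_b. Over the stretch around its start the promoter had 256, 227 and 221 interactions per 100000, VPE 207, 109 and 88.1, and PSE_b 187, 34.4 and 0. The promoter libraries lay above all others, at a gene chosen after its values were seen. In a fit without PSE_a, limma called 0 of 350 bins (0%) between the promoter and the mean of VPE and PSE_b, and the bin of Sox14 had 0.74 (SE 0.27, adjusted p = 0.509). Against PSE_b alone 1 bin (0.286%) passed, and that of Sox14 did not (0.80, adjusted p = 0.188).

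**Figure D4:**
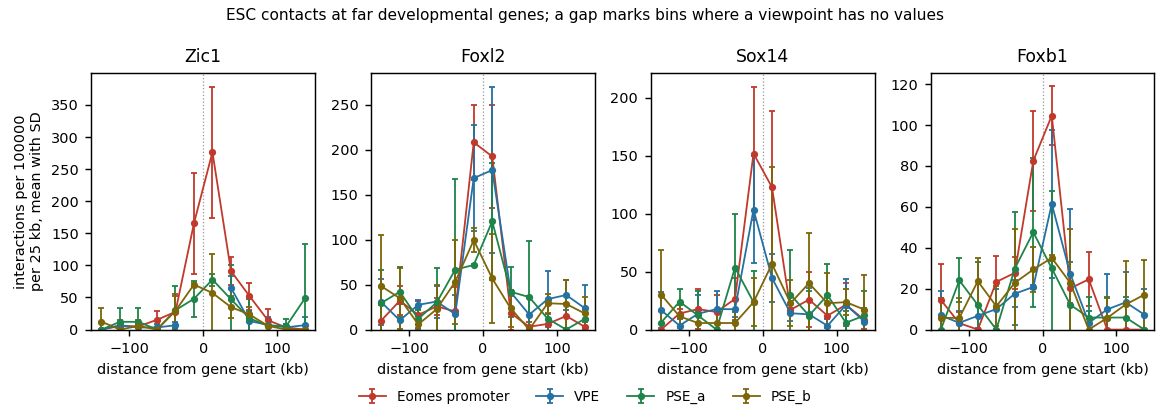
Interactions per 100000 in 25 kb steps (mean with SD of 3 ESC libraries) against distance from the gene start in kb, for Zic1, Foxl2, Sox14 and Foxb1. Lines break where a viewpoint has no values, as VPE at Zic1 and PSE_a at Sox14. The promoter mean is the highest at all 4 gene starts, which follows from how they were picked. Zic1 and Foxl2 were shown because they passed a test, and Sox14 and Foxb1 after their values were seen.

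Windows of 50 kb at gene starts were then taken for a list of 25 developmental regulators and a list of 23 broadly active genes of the chromosome. Both lists were chosen with earlier results of these data known, so their counts and shares are description only. Of the developmental windows, 4 overlapped a stretch and were left out (Zic1, Zic4, Fli1 and Tgfbr2), and 13 of the other 21 had enough reads for the test. Limma called 0 of the 13 between the promoter and the mean of the enhancers, with 10 of 13 above 0 and a median of 0.82. Of the active windows 13 also had enough reads, with 0 called, 7 above 0 and a median of 0.00. Over all 371 bins 207 were above 0, with a median of 0.06. Windows with too few reads are missing from both list medians, though the fit that also held DE libraries gives their ESC values. Of these, every developmental one but Tbx20 lay below 0.82, with Smad3, Pou2f3 and Bmp5 below 0. Active ones lay above 0 at Rpl4, Rplp1, Smarcc1, Arih1, Usp4 and Wdr6, and below 0 at Rps25, Hspa8, Pkm2 and Rbm6. The gap between the list medians thus rests in part on the minimum of 10 reads. Among the 13 developmental windows the largest value was at Isl2, a LIM homeodomain factor (1.63), followed by the nuclear receptor Rora (1.31) and the forkhead factor Foxb1 (1.28), and none passed (adjusted p of 0.567, 0.875 and 0.567). Among the 13 active windows the lowest value was at Rbm5, a splicing factor (-1.51, adjusted p = 0.661), with 0 promoter reads. The lists were more alike against PSE_a, where the developmental and active medians were 0.7 and 0.577. Against PSE_b they were 1.31 and -0.447, and against VPE 0.305 and -0.07.

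Foxb1, at -48780 kb, had 196, 161 and 204 interactions per 100000 from the promoter, above all 9 enhancer columns, which ran from 36.4 to 114. Onecut1, a homeodomain factor at -43680 kb, had 121, 123 and 221 from the promoter, 155, 178 and 66.1 from VPE, 36.1 to 109 from PSE_a and 33.9 to 36.9 from PSE_b. Tbx18, a T-box factor at -30760 kb, had 151, 293 and 238 from the promoter, 132 to 198 from VPE, 90.3 to 219 from PSE_a and 36.9 to 138 from PSE_b. These levels come from few reads per column, and none of the 3 windows passed. The 3 genes were chosen after their values were seen.

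As a share, the 21 developmental windows took 1.49%, 1.27% and 1.58% of promoter interactions beyond 30 kb in libraries A, B and C. They took 1.45%, 1.13% and 0.925% of those of VPE, 0.636%, 0.975% and 1.02% of those of PSE_a, and 0.611%, 0.739% and 0.516% of those of PSE_b. The promoter was higher than each enhancer in all 3 libraries, by 0.28 ± 0.33, 0.57 ± 0.28 and 0.83 ± 0.27 points, and its libraries did not overlap with those of the PSEs (exact sign-flip p = 0.25 each). At the active genes the promoter took 0.518 ± 0.148%, VPE 0.586 ± 0.031%, PSE_a 0.378 ± 0.080% and PSE_b 0.515 ± 0.079%. Its differences there were -0.07 from VPE, 0.14 from PSE_a and 0.004 from PSE_b (exact sign-flip p of 0.75, 0.25 and 1.0). Whether the 2 lists differ in this was not tested.

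The contrast between promoter and enhancers was set against that of DE cells, in which the gene is expressed. Limma called 0 of 385 bins within 2 Mb (0%) and 0 of 470 bins beyond (0%) for a difference of the contrast between ESCs and DE, with 16 and 16 at an unadjusted p under 0.05, and edgeR called 0 in both. At Ctdspl the promoter exceeded the enhancers by 1.20 in ESCs and 0.63 in DE, and the change was 0.57 (SE 0.38, adjusted p = 0.993). At Cmc1 the values were 0.69 and 0.37 (adjusted p = 0.993). The promoter window of Ctdspl held 555 ± 46 interactions per 100000 in ESCs, and 258, 197 and 219 in the DE libraries, in which VPE held 163 to 251 and the PSEs 61.4 to 174. At -45 kb the promoter was below the enhancers by -0.51 in ESCs and above them by 0.14 in DE, and the change of -0.65 (SE 0.21) had an adjusted p of 0.319. At Zic1 the promoter exceeded the PSEs by 1.72 in ESCs and 0.95 in DE (change 0.78, SE 0.54, adjusted p = 0.922). At Foxl2 the DE promoter libraries had 40.5, 67.0 and 45.0 per 100000, below all ESC libraries of the promoter. The same held for each enhancer, with 41.9 to 54.2 from VPE, 9.65 to 29.6 from PSE_a and 35.5 to 63.5 from PSE_b in DE. Levels between the 2 cell states were not tested here.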

How the data were processed

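NG Capture-C was done on 6 ESC samples, 3 libraries each enriched with promoter and with enhancer probes, and on 6 DE samples. The deposited signal of each column is, per DpnII fragment, the interactions scaled by the authors to 100000 in all. The submitters' processing notes name Trim Galore, Bowtie and mm9, and the study's methods name FourCSeq and DESeq2, with no settings in the sources used here. Whole reads were recovered from the signal (100% of values within 0.05 of a read). Of 72 deposited columns in the files read, 24 were used and 48 were not. Counting error limits low bins. Stretches of at least 35 kb in which all 6 columns of a viewpoint had 0 reads where at least 15 were expected were left out, a filter added after the values were seen.

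Reads were scaled to 100000 chromosome 9 interactions beyond 30 kb from the TSS, and features with at least 10 reads over 12 columns were tested as log2(value + 10) with limma 3.58.1 (R 4.3.3), intensity trend and library block, with Benjamini-Hochberg adjustment over all bins and windows of a table and a threshold of 0.05. Adding 10 understates differences of low features. The library block follows the labels, which give both captures of a letter the same library. Deviations of promoter and enhancers correlated by 0.144, 0.0553 and 0.19 in libraries A, B and C. Chi-square per degree of freedom between libraries of 1 viewpoint was 1.19 to 1.59 over 12 pairs, and only for libraries A and C of the promoter was the difference within counting noise (1.19, chi-square p = 0.0593). They were kept as separate replicates, since the enhancer columns of the same libraries differed beyond counting noise (1.385 for VPE). Shares were compared by exact sign-flip tests. Named were the elements, gene starts within 1 Mb, listed genes that passed or had the 3 highest and lowest values, and up to 5 bins or fragments each way past the threshold with no overlap. Foxb1, Onecut1, Tbx18 and Sox14, and the CG counts, were chosen after their values were seen. The members and lists were chosen with earlier results of these data known. On simulated reads limma recovered 42.8% of 4-fold changes in fragments, 75% in 10 kb bins and 89.2% in 250 kb bins. Smaller changes were not simulated, so the recovery of the smaller differences named above is not known. Alternatives used edgeR 4.0.16, DESeq2 1.42.0, other scalings, bins, pseudocounts and filters, no block, and leaving out each library. After seeing the data 4 more were tried: 25 kb bins, stretches kept as 0, each enhancer left out of the fit, and the comparison with DE beyond 2 Mb.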

Additional observations from a re-analysis of the deposited data

How the results depend on the processing

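Over the alternatives, 287 of the values that answer a comparison kept their direction and side of the threshold, 6 lost the threshold, 62 moved and 3 reversed, and for single windows and bins the numbers were 939, 245 lost, 4 gained and 30 reversed. The cause was not tested. In the 10 kb bins the promoter against PSE_a (10 bins) gave 4 with DESeq2, 0 without the intensity trend, 5 with 60 kb left out around the TSS, 4 with only both viewpoints in the fit and 4 in 20 kb bins. Against PSE_b (6 bins) it gave 2 with DESeq2, 0 without the trend and 3 with 60 kb left out. Against VPE (4 bins) it gave 8 with DESeq2, 7 with edgeR, 2 with a pseudocount of 2, 7 with 50, 0 without the trend and 0 in 5 kb bins. Against the mean (3 bins) it gave 5 with all interactions as the total, 6 with a pseudocount of 50, 8 without VPE in the fit, and 0 with DESeq2, with a pseudocount of 2, without the replicate block, with enhancer reads summed, without the trend, in 5 kb bins, without PSE_a and without PSE_b. Without the replicate block the Zic1 call remained (adjusted p = 0.000145). In fragments, PSE_a gave 2 with TMM scaling and 0 with DESeq2, without the trend and with 60 kb left out, VPE gave 1 with no minimum count and 1 with a pseudocount of 2, and the mean gave 2 without VPE and 0 with DESeq2, edgeR, no trend, 60 kb left out and without PSE_a. Beyond 2 Mb the mean gave 1 with stretches kept as 0 and 1 without VPE. Without the trend the values 1.72 at Zic1, 1.64 at Zic4 and 1.40 in their bin no longer passed (adjusted p = 0.637, 0.637 and 0.652). The left edge lay at -465 kb with 100 kb windows. The left step was 5.81 (25 kb windows) and 4.81 (100 kb) from the promoter, 2.75 (25 kb) from PSE_a, 3.30 (25 kb) from PSE_b and 5.57 (100 kb) from VPE, and the right step was 2.89 (100 kb) from the promoter, 2.45 (100 kb) from PSE_b and 2.01 (25 kb) and 3.30 (100 kb) from VPE. The active share against PSE_b was -0.0107 with 60 kb left out. Edges set by annotation left no downstream side beyond 30 kb, so no upstream share was had.

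Reversals among uncalled windows were Acaa1b (-0.064 with reads summed, -0.38 without PSE_b), Acvr2b (-0.054 summed), Dlec1 (0.041 TMM, 0.013 DESeq2, 0.25 without VPE), Gm10608 (-0.063 without PSE_b), Itga9 (0.15 without VPE), Oxsr1 (-0.13 summed), Plcd1 (-0.080 summed, -0.0057 without PSE_a, -0.019 without PSE_b), Slc22a14 (-0.011 edgeR, -0.085 summed, -0.10 without PSE_b), Vill (-0.00079 without PSE_a), Zcwpw2 (0.28 without PSE_a) and the -93 kb element (-0.0090 without VPE). The called bin at -332.3 kb reversed against PSE_a in 5 kb bins (-0.067). Leaving out each library, the 10 kb counts ran from 0 to 8 (PSE_a), 0 to 10 (PSE_b), 0 to 5 (VPE) and 0 to 6 (mean), and the fragment counts from 0 to 1 (PSE_a) and 0 to 1 (mean). The values ran from -0.41 to 0.71 at Acaa1b, -0.28 to 0.41 at Acvr2b, -1.14 to 0.054 at Celsr3, -0.17 to 0.21 at Dlec1, -0.11 to 0.98 at Gm10608, -0.20 to 0.0058 at Itga9, -0.46 to 1.34 at Oxsr1, -0.092 to 0.47 at Plcd1, -0.018 to 0.45 at Slc22a14, -0.035 to 0.48 at Xylb and -0.063 to 0.23 at -93 kb. They ran from 1.48 to 1.87 at Zic1, 1.43 to 1.77 at Zic4 and 1.31 to 1.51 in their bin, and the active share from -0.107 to 0.103 (PSE_b) and -0.115 to 0.0066 (VPE).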
